A study of Cucumis melo with 24 samples.

Results

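The MYB genes of melon (Cucumis melo) fruit flesh are described here: the genes whose deposited description contains MYB and not helix-loop-helix, and which reached 1 TPM or more in at least 3 of 24 libraries. TPM, a length-scaled transcript abundance, is the level of a gene relative to all transcripts of its library. Of the 29980 genes listed, 340 had such a description, and 97 of these passed the filter and are called members. Another 243 stayed below it, 142 of them listed at 0 in every library. RNA was sequenced from flesh of the cmnac-nor mutant and of the wild type (WT), sampled 15, 25, 35 and 45 days after pollination (DAP). Each of the 8 groups of genotype and age has 3 libraries. CmNAC-NOR encodes a NAC-domain transcription factor whose tomato relative is a known regulator of ripening, and the comparison of the genotypes at each age asks which MYB genes differ when it is mutated. The sources used here do not name the cultivar or the kind of mutation. Nor do they say that a group's libraries come from different plants or fruits, so p-values measure the spread between libraries, which may be technical.

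MYB proteins bind DNA through 1 or more repeats of the MYB domain and form one of the largest families of plant transcription factors. R2R3 members are known to steer phenylpropanoid and flavonoid synthesis, secondary walls, stress responses and flower development, 3R members act in the cell cycle, and single-repeat and GARP-type members, which carry a related domain, act in phloem, phosphate and light responses. In ripening fruit the family is best known for its control of pigment and phenolic pathways.

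The descriptions sort the members into 19 annotated as Myb family factors (APL among them), 4 MYB1R1, 6 MYB44 and 5 MYB108. Another 3 are developmental R2R3 genes (GAMYB, MYB24-like and MYB98-like), 4 are secondary-wall R2R3 genes (MYB86 and MYB46) and 2 are of type 3R-1. There are also 5 L10-interacting MYB proteins, 1 MYB34-like gene, 1 cyclin-D-binding Myb-like gene and 22 with only a general MYB description. The 19 Myb family factors are called GARP-type here from the words of their descriptions alone. No domain or sequence was checked. A further 21 members are Myb/SANT-like DNA-binding domain proteins, out of 185 so described, and 4 are target of Myb protein 1, an endosomal sorting protein that is no MYB factor but meets the rule. The 3 genes named as phenylpropanoid and flavonoid R2R3 regulators were all below the filter. At the threshold, 3 members reached 1 TPM in exactly 3 libraries, with highest values of 1.75 to 2.75 TPM, and 5 genes that failed reached it in 2 libraries, with highest values of 1.40 to 3.03 TPM.

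Libraries summed to 927159 to 963192 TPM and held 13820 to 16044 genes at 1 TPM or more, of which 56 to 76 were members. TPM keep no read depth, so the depth is unknown. CmNAC-NOR itself averaged 149 ± 153, 543 ± 86.8, 1152 ± 107.9 and 1862 ± 55.9 TPM in cmnac-nor flesh at 15, 25, 35 and 45 DAP, against 777 ± 230, 1417 ± 39.8, 1050.0 ± 246 and 458 ± 46.1 TPM in WT flesh (SD, n = 3 libraries in each group, as for all means below). Its log2 change was -3.001, -1.39, 0.16 and 2.03 at the 4 ages (limma adjusted p 0.000558, 0.025, 0.81 and 0.00255). The transcript was present in every library, and the mutant libraries were the lower ones at 15 and 25 DAP and the higher ones at 45 DAP. Of 39 genes described as seed storage proteins or oleosins, 28 to 33 were at 0 in all 3 libraries of a group, and their summed level lay between 39.7 and 157 TPM. At 25 DAP they summed to 76.3 to 115 TPM in cmnac-nor flesh against 39.7 to 47.8 TPM in WT flesh. At 35 DAP the sums were 53.35 to 65.4 against 81.4 to 157 TPM, and at 45 DAP 67.6 to 83.1 against 97.4 to 145 TPM. With late embryogenesis abundant genes added, the sums of 110 genes averaged 7096, 4859, 3668 and 4447 TPM in cmnac-nor flesh at the 4 ages. In WT flesh these sums averaged 7609, 1356, 1291 and 1634 TPM.

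Genotypes were compared with limma on log2(TPM + 1) over the 17658 genes that passed the filter, with Benjamini-Hochberg adjusted p under 0.05 as the call, and log2 changes are cmnac-nor minus WT. This scale understates the change of low genes. Members under 1 TPM in every library of 1 genotype passed the filter through the other genotype alone. Their adjusted p between genotypes are thus not independent of the filter. Among them are MELO3C017638.2, MELO3C034442.2, MELO3C029646.2 and MELO3C035039.2, described below. At 15 DAP, 5 members were higher and 14 lower in cmnac-nor flesh, 19.6% of the members against a background of 18.3% of all genes called (10.3% higher, 7.99% lower). At 25 DAP, 43 were higher and 14 lower, 58.8% against 66.9% of all genes (48.6% higher, 18.3% lower). At 35 DAP, 42 were higher and 20 lower, 63.9% against 64.4% (41.2% higher, 23.2% lower). At 45 DAP, 38 were higher and 21 lower, 60.8% against 60.5% (38.5% higher, 22% lower). The share of members called in either direction was thus near the background at 15, 35 and 45 DAP and below it at 25 DAP. At 15 DAP the directions differed: 5.15% of members were higher and 14.4% lower, beside 10.3% and 7.99% of all genes. These calls at 15 DAP depended on the fit, as given below.

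The median log2 change of the members was -0.11, 0.52, 0.36 and 0.49 at the 4 ages, beside 0.03, 0.44, 0.27 and 0.22 over all genes tested. The balance of directions moved with the scaling. Median-of-ratios scaling put the median of all genes at 0.08, 0.07 and 0.04 at 25, 35 and 45 DAP and the members at 36 higher and 21 lower, 39 and 23, and 36 and 29. Quantile normalization put it at -0.01, -0.03 and -0.08 and the members at 29 higher and 27 lower, 30 and 30, and 26 and 34. All genes moved too. Median-of-ratios scaling gave 6194 higher and 5414 lower, 6105 and 5452, and 5716 and 5280 of the 17658 genes at 25, 35 and 45 DAP. With quantile normalization the numbers over all genes were 5322 and 5639, 5338 and 6003, and 4749 and 5958. Small changes at these ages are thus relative to a median gene that moves with the scaling.

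**Figure D1:**
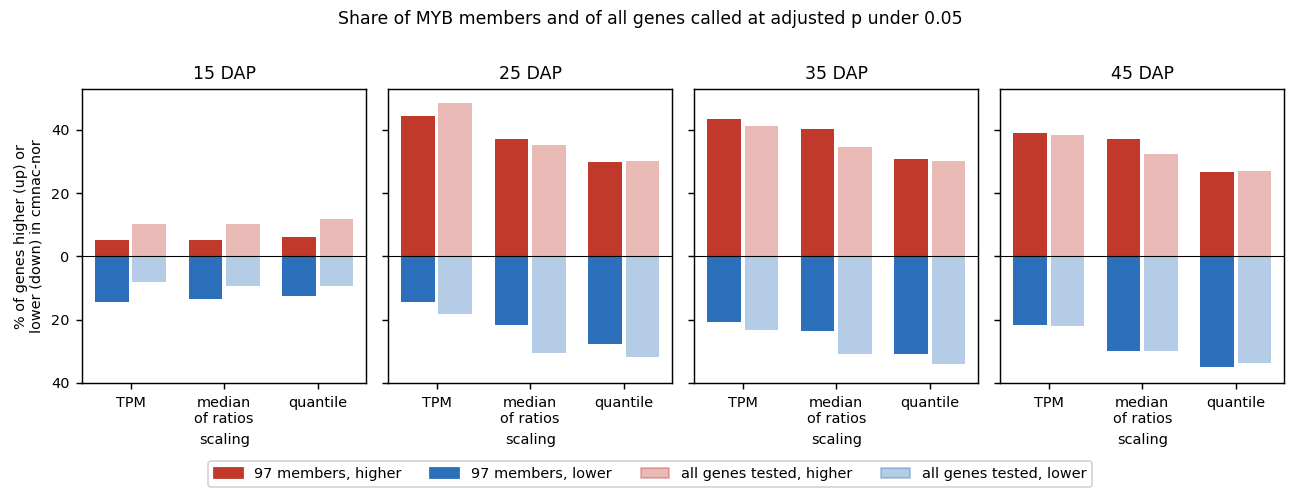
Bars give the percent of the 97 MYB members (solid) and of all 17658 genes tested (pale) called higher (upward) or lower (downward) in cmnac-nor than in WT at each age, for TPM as deposited and under 2 other scalings. At 15 DAP the members have more lower (14) than higher (5) while all genes have 10.3% higher and 7.99% lower. From 25 DAP on the shares with TPM as deposited lie near each other. Under quantile normalization at 45 DAP the members shift to 26 higher and 34 lower, and all genes to 4749 higher and 5958 lower.

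At 25, 35 and 45 DAP together, 27 members (27.8%) were higher in cmnac-nor flesh at all 3 ages, beside 25% of all genes, and 7 (7.22%) were lower at all 3, beside 9.49%. Both directions occurred at different ages in 2 members (2.06%), beside 7.53% of all genes, and 15 (15.5%) were called at none of the 3, beside 11.6%. The libraries of the genotypes did not overlap for 28, 68, 64 and 68 members at the 4 ages, or 28.9%, 70.1%, 66% and 70.1%, beside 26.5%, 75.6%, 68.1% and 70.1% of all genes. The highest group mean lay in a cmnac-nor group for 49 members and in a WT group for 48, 50.5% and 49.5%, beside 55.2% and 44.8% of all genes. WT at 15 DAP and WT at 45 DAP each held the highest mean of 18 members, 18.6%, beside 10.3% and 15.3% of all genes.

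**Figure D2:**
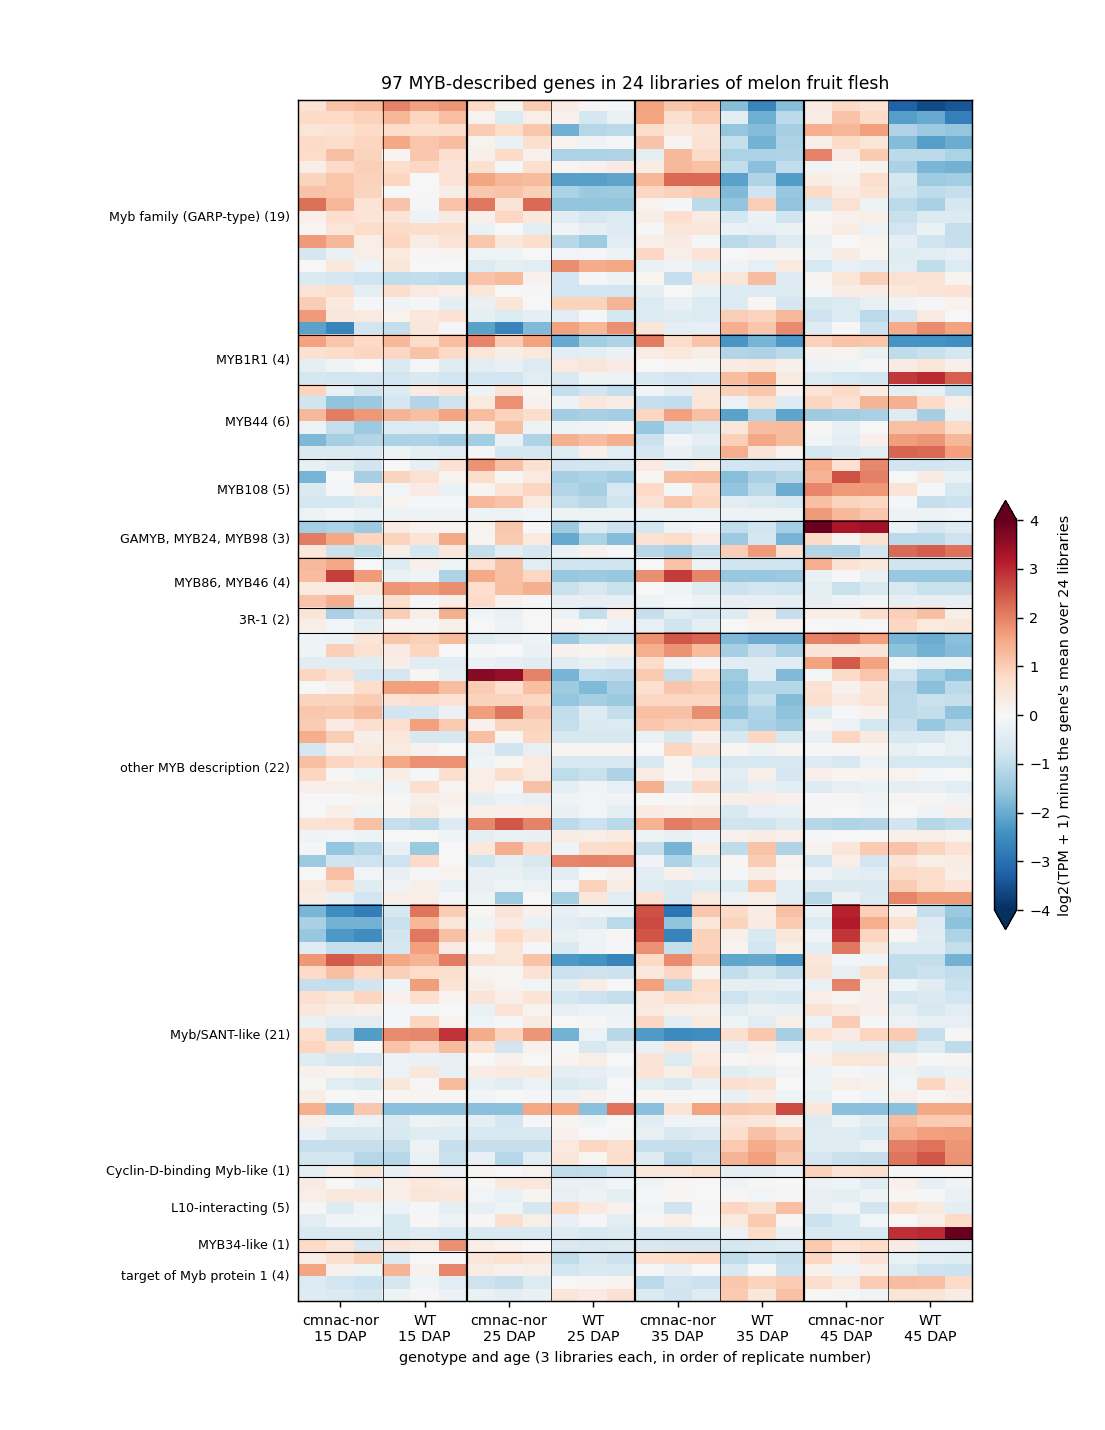
Each row is 1 of 97 members and each column 1 of 24 libraries, with cmnac-nor left of WT at each age; colour gives log2(TPM + 1) minus the gene's mean, and rows are grouped by description and ordered by their change at 45 DAP. Blocks of 3 columns of 1 colour mark the groups whose libraries stand together, and broken blocks, as in the Myb/SANT-like class, mark members whose libraries differ within a group.

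The summed level of the members rests on few genes. The 6 most abundant members held 55.3% of the summed level of all 97, which lay between 1972 and 2711 TPM per library. Among these 6 is MELO3C008434.2, a target of Myb protein 1 and so no MYB factor. The sum takes in all 4 genes of that description. Over the 24 libraries, 37 members averaged 10 TPM or more and 15 averaged under 1 TPM. The most abundant was MELO3C013925.2, described only as a Myb transcription factor. It had 424, 758 and 603 TPM in cmnac-nor flesh at 35 DAP, against 442, 362 and 448 TPM in WT flesh, and these libraries overlapped. Its limma adjusted p was 0.615, 0.0418, 0.0761 and 0.272 at the 4 ages. The value at 25 DAP ranged from 0.00345 to 0.198 over the alternatives and missed the threshold without library 2 of the mutant or any 1 WT library of that age. At 25 DAP the gene had 359, 240.2 and 335 TPM in cmnac-nor flesh, against 450.4, 450.0 and 449 TPM in WT flesh. The MYB transcription factor MELO3C010833.2 averaged 322 ± 122.8 TPM in cmnac-nor flesh and 231 ± 71.2 TPM in WT flesh at 25 DAP. It was called at none of the 4 ages, and its WT libraries at 35 DAP spread over 81.0, 366 and 71.2 TPM.

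GARP-type Myb family genes gave 19 members. At 15 DAP, 1 of 19 was higher and 2 lower in cmnac-nor flesh, and at 25, 35 and 45 DAP 9, 12 and 11 were higher and 3, 2 and 2 lower. The shares called at these later ages were 63.2%, 73.7% and 68.4%, beside 66.9%, 64.4% and 60.5% of all genes, and the median log2 changes were 0.54, 0.996 and 0.81, beside 0.44, 0.27 and 0.22 over all genes. Under quantile normalization the counts were 8 higher and 4 lower at all 3 ages, and median-of-ratios scaling gave 8 and 3, 10 and 2, and 9 and 3. The level summed over all 21 genes of the description averaged 397, 378, 437 and 361 TPM in cmnac-nor flesh at the 4 ages, against 415, 206, 166 and 140.1 TPM in WT flesh. In WT each mean was below that of the age before, while the mutant means had no such order.

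APL, ALTERED PHLOEM DEVELOPMENT, is required for phloem identity in Arabidopsis. The APL-described gene MELO3C026896.2 had 26.5, 41.2 and 44.2 TPM at 15 DAP in cmnac-nor flesh, against 73.6, 57.9 and 62.9 TPM in WT flesh. At 35 DAP it had 57.1, 39.8 and 43.7 TPM in cmnac-nor flesh, against 4.80, 2.06 and 4.77 TPM in WT flesh, a log2 change of 3.34 (SE 0.26, limma adjusted p 1.93e-09). By 45 DAP it had 23.0, 32.3 and 27.4 TPM in cmnac-nor flesh, against 1.03, 0.60 and 0.77 TPM in WT flesh, a change of 3.98 (SE 0.26, limma adjusted p 2.11e-10). At the 2 later ages every mutant library thus lay far above every WT library, while at 15 DAP the WT libraries were the higher ones. The APL-like gene MELO3C019621.2 was also higher in the mutant at 45 DAP, with 23.98 ± 7.16 TPM in cmnac-nor flesh and 2.0 ± 0.73 TPM in WT flesh, a change of 3.05 (SE 0.34, limma adjusted p 2.73e-07). The APL gene MELO3C007989.2 was higher in cmnac-nor flesh at every age, first at 74.5, 72.3 and 62.9 TPM against 32.7, 33.8 and 40.2 TPM in WT flesh at 15 DAP, a change of 0.96 (SE 0.17, limma adjusted p 0.000756). By 25 DAP it had 71.0, 74.3 and 64.6 TPM in cmnac-nor flesh, against 13.1, 11.3 and 11.7 TPM in WT flesh, a change of 2.44 (SE 0.17, limma adjusted p 6.59e-10). Its libraries did not overlap at any of the 4 ages.

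The Myb family gene MELO3C007988.2 had overlapping libraries at 15 DAP, with 35.6, 38.03 and 44.8 TPM in cmnac-nor flesh and 41.5, 41.3 and 42.3 TPM in WT flesh. Its 25 DAP libraries had 51.9, 42.6 and 55.5 TPM in cmnac-nor flesh, against 6.02, 11.1 and 11.4 TPM in WT flesh, a log2 change of 2.32 (SE 0.18, limma adjusted p 1.76e-09). Its 45 DAP libraries had 71.2, 65.3 and 81.6 TPM in cmnac-nor flesh, against 10.3, 8.69 and 8.10 TPM in WT flesh, a change of 2.88 (SE 0.18, limma adjusted p 9.73e-11). No mutant library of any age was below 34.5 TPM, and the WT libraries all lay at or under 11.4 TPM from 25 DAP on. MELO3C012077.2, another gene of this description, had 31.6, 26.4 and 25.2 TPM in cmnac-nor flesh at 25 DAP, against 1.41, 1.42 and 1.52 TPM in WT flesh, a change of 3.55 (SE 0.29, limma adjusted p 5.29e-09). At 35 DAP its change was 3.82 (SE 0.29, limma adjusted p 1.75e-09), and at 45 DAP, with 13.2 ± 2.62 TPM in cmnac-nor flesh and 3.95 ± 1.53 TPM in WT flesh, it was 1.55 (SE 0.29, limma adjusted p 0.000153). MELO3C022867.2 had 11.8, 3.29 and 13.3 TPM in cmnac-nor flesh at 25 DAP and was listed at 0 in all 3 WT libraries (limma adjusted p 0.000159).

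The GARP-type genes MELO3C034013.2, MELO3C006313.2 and MELO3C031382.2 were lower in the mutant at the ages given here. MELO3C034013.2 had 0.40, 0 and 0.83 TPM in cmnac-nor flesh at 25 DAP, against 17.9, 14.6 and 20.9 TPM in WT flesh, a log2 change of -3.77 (SE 0.42, limma adjusted p 2.44e-07). In the oldest flesh, at 45 DAP, it had 3.32, 5.25 and 2.42 TPM in cmnac-nor flesh, against 16.4, 21.8 and 18.1 TPM in WT flesh, a change of -2.12 (SE 0.42, limma adjusted p 0.000223). No mutant library reached the lowest WT library at 25, 35 or 45 DAP. The APL-described MELO3C006313.2 stood out in 1 group only, WT at 25 DAP, with 0.40, 0.60 and 0.50 TPM in cmnac-nor flesh against 6.40, 4.65 and 5.0 TPM in WT flesh and a change of -2.07 (SE 0.22, limma adjusted p 1.06e-07). Its other groups averaged 0.30 to 1.30 TPM. The APL-described MELO3C031382.2 had 2.72, 2.92 and 2.75 TPM in cmnac-nor flesh at 35 DAP, against 9.86, 9.11 and 12.4 TPM in WT flesh, a change of -1.58 (SE 0.30, limma adjusted p 0.000126). The Myb family gene MELO3C022213.2 had 24.6, 29.5 and 21.8 TPM in cmnac-nor flesh and 26.8, 22.04 and 20.6 TPM in WT flesh at 25 DAP, which overlapped. It was called higher at 35 DAP (log2 0.59, limma adjusted p 0.0125) and at 45 DAP (0.72, adjusted p 0.00341), and both calls ended under median-of-ratios scaling and under quantile normalization, the first also without library 2 or 3 of the mutant.

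Phloem markers were read beside these genes. Phloem lectins and phloem protein 2, 18 genes, summed to 11267 to 26086 TPM in cmnac-nor flesh at 15 DAP, against 9928 to 19525 TPM in WT flesh. At 25 DAP they summed to 5862 to 9064 TPM in cmnac-nor flesh, against 1843 to 2933 TPM in WT flesh, at 35 DAP to 3832 to 6941 TPM in cmnac-nor flesh against 178 to 370.0 TPM in WT flesh, and at 45 DAP to 7167 to 10595 TPM in cmnac-nor flesh against 97.1 to 149 TPM in WT flesh. Of 10 sieve element occlusion genes, 0, 1 and 1 were at 0 in all 3 cmnac-nor libraries at 25, 35 and 45 DAP, against 4, 6 and 7 in WT. These 10 genes summed to 99.4 to 271 TPM in cmnac-nor flesh at 15 DAP against 181 to 313 TPM in WT flesh, and at 25 DAP to 70.4 to 168 TPM in cmnac-nor flesh against 1.09 to 1.34 TPM in WT flesh. At 35 DAP they summed to 12.4 to 206 TPM in cmnac-nor flesh against 1.04 to 2.26 TPM in WT flesh, and at 45 DAP to 5.06 to 10.7 TPM in cmnac-nor flesh against 1.25 to 1.37 TPM in WT flesh. Within the mutant the sums of these 10 genes at 45 DAP thus lay below those of every younger age. The lectin and phloem protein 2 sums of the mutant at 45 DAP lay above those at 35 DAP. The summed GARP level of the mutant averaged 397, 378, 437 and 361 TPM at 15, 25, 35 and 45 DAP. Of the 25 phloem-described genes tested, 18, 19 and 13 were higher in cmnac-nor flesh at 25, 35 and 45 DAP, and 1, 2 and 0 lower. Of all genes, 48.6%, 41.2% and 38.5% were higher at these ages. Under quantile normalization, tried for the marker and pathway lists after seeing the data, 17, 19 and 12 were higher and 1, 3 and 0 lower. Their part in the result was not tested, and in whole flesh fewer cells of a type and less RNA per cell cannot be told apart.

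**Figure D3:**
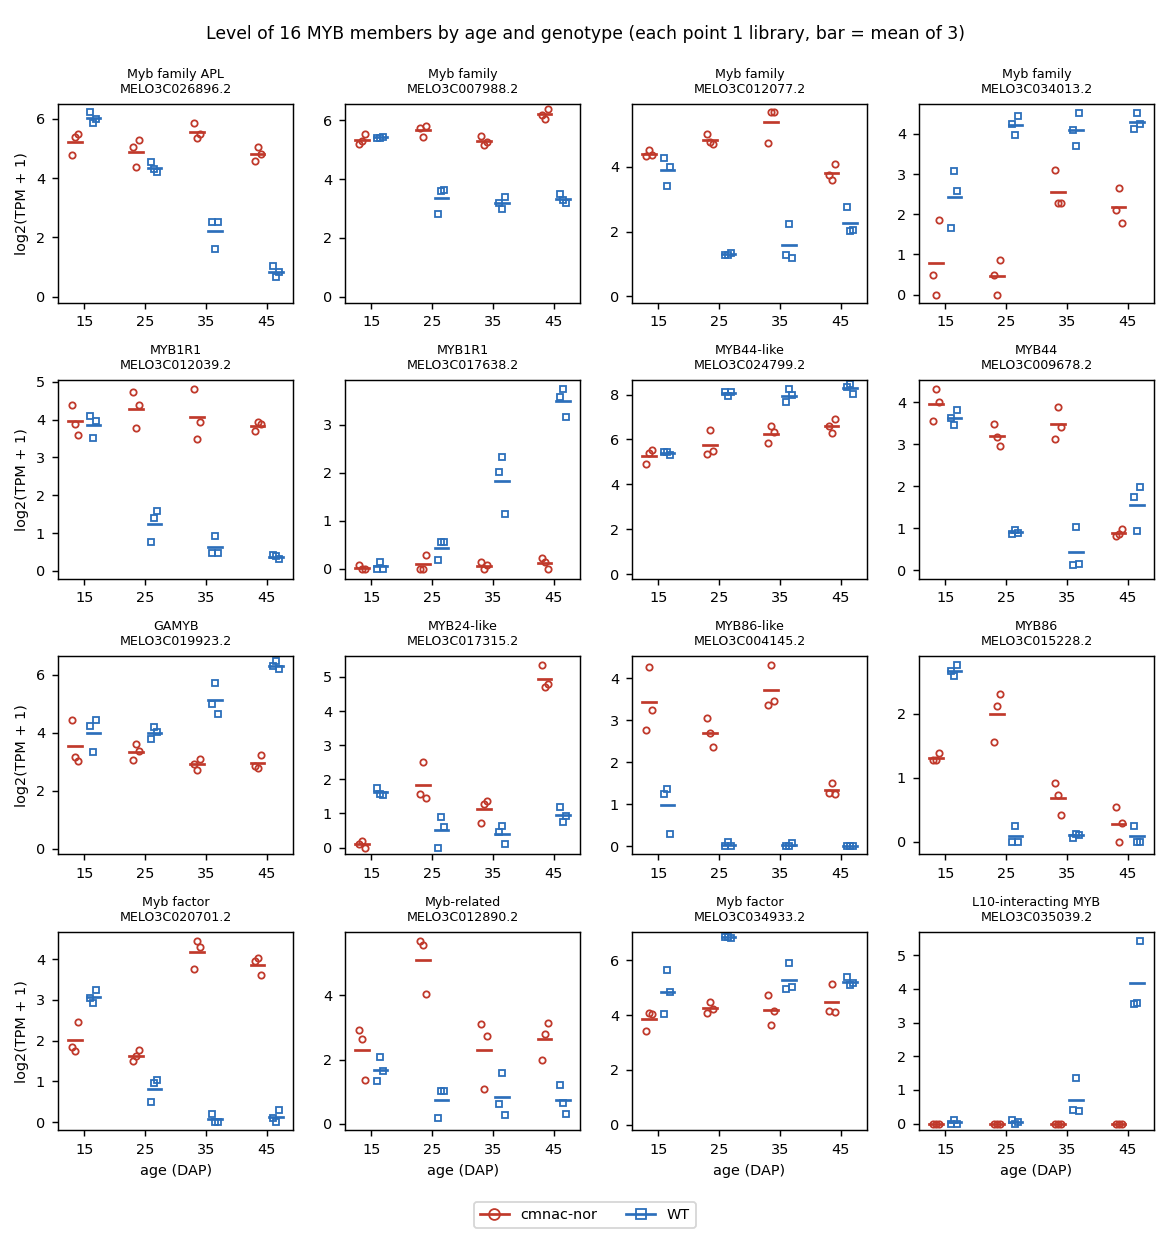
Each panel gives log2(TPM + 1) of 1 member by age, with cmnac-nor libraries (red circles) left of WT libraries (blue squares) and bars at the means of 3 libraries. APL MELO3C026896.2 and MYB1R1 MELO3C012039.2 end at 0.80 and 0.30 TPM in WT at 45 DAP, where every cmnac-nor library is far higher. GAMYB MELO3C019923.2 and L10-interacting MELO3C035039.2 are high in WT at that age.

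MYB1R1, a single-repeat factor known from potato for its part in drought response, gave 4 members, and they differed among themselves in direction. MELO3C012039.2 had 20, 13.8 and 10.98 TPM in cmnac-nor flesh at 15 DAP, against 15.97, 10.4 and 14.7 TPM in WT flesh, and these libraries overlapped. Then, at 25 DAP, it had 25.5, 12.6 and 19.9 TPM in cmnac-nor flesh, against 0.69, 1.62 and 2.02 TPM in WT flesh, a log2 change of 3.05 (SE 0.31, limma adjusted p 7.36e-08). At 45 DAP it had 12.1, 14.3 and 13.7 TPM in cmnac-nor flesh, against 0.35, 0.31 and 0.25 TPM in WT flesh, a change of 3.46 (SE 0.31, limma adjusted p 1.46e-08). WT libraries were low from 25 DAP on, and no mutant library overlapped them. MELO3C017638.2 ran the other way: it was under 0.25 TPM in every cmnac-nor library, and at 45 DAP it had 0.17, 0.10 and 0 TPM in cmnac-nor flesh against 10.9, 12.3 and 7.87 TPM in WT flesh, a change of -3.37 (SE 0.23, limma adjusted p 3.48e-10). Its change at 35 DAP was -1.75 (SE 0.23, limma adjusted p 1.65e-06).

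The 2 abundant MYB1R1 genes also split. MELO3C002228.2, the second most abundant member, had 333, 361 and 317 TPM in cmnac-nor flesh at 35 DAP, against 119.4, 113.4 and 130.2 TPM in WT flesh, a log2 change of 1.47 (SE 0.12, limma adjusted p 6.23e-09). At 45 DAP its change was 0.88 (SE 0.12, limma adjusted p 6.11e-06), again with no overlap. MELO3C017134.2 had 133, 146 and 123.9 TPM in cmnac-nor flesh at 25 DAP, against 240.2, 251 and 225 TPM in WT flesh, a change of -0.83 (SE 0.12, limma adjusted p 1.03e-05), and at 45 DAP its change was -0.49 (SE 0.12, limma adjusted p 0.00212). The summed level of the 4 genes averaged 625, 505, 543 and 449 TPM in cmnac-nor flesh at the 4 ages, against 659, 451, 350.0 and 389 TPM in WT flesh.

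MYB44 and its close relatives, known in Arabidopsis for abscisic acid and stress responses, gave 6 members. At 25 DAP 2 were higher and 1 lower in cmnac-nor flesh, at 35 DAP 1 was higher and 3 lower, and at 45 DAP 1 was higher and 4 lower. The shares called were 50%, 66.7% and 83.3%, beside 66.9%, 64.4% and 60.5% of all genes. Quantile normalization gave 1 higher and 2 lower at 25 DAP, 1 higher and 4 lower at 35 DAP, and only 4 lower at 45 DAP. The MYB44-like gene MELO3C024799.2, the most abundant, had 29.1, 40.5 and 45.01 TPM in cmnac-nor flesh at 15 DAP, against 42.6, 42.8 and 38.5 TPM in WT flesh. At 25 DAP it had 39.6, 85.5 and 44.4 TPM in cmnac-nor flesh, against 278, 246 and 275 TPM in WT flesh, a log2 change of -2.30 (SE 0.25, limma adjusted p 2.07e-07). By 45 DAP it had 95.5, 77.6 and 119.2 TPM in cmnac-nor flesh, against 327, 353 and 258 TPM in WT flesh, a change of -1.68 (SE 0.25, limma adjusted p 1.13e-05). From 25 DAP on the WT level was several times that of the mutant, and the libraries did not overlap. MELO3C034442.2, also MYB44-like, was under 1 TPM in every cmnac-nor library, and at 45 DAP it had 0, 0.11 and 0.19 TPM in cmnac-nor flesh against 7.23, 6.95 and 4.08 TPM in WT flesh, a change of -2.66 (SE 0.28, limma adjusted p 1.61e-07).

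The MYB44 gene MELO3C007586.2 had 9.03, 15.1 and 17.3 TPM in cmnac-nor flesh at 35 DAP, against 39.0, 65.8 and 67.9 TPM in WT flesh, a log2 change of -1.99 (SE 0.33, limma adjusted p 2.91e-05), and at 45 DAP its change was -1.12 (SE 0.33, limma adjusted p 0.00616). The other MYB44 gene, MELO3C009678.2, was high in young flesh of both genotypes, with 10.7, 18.9 and 15.01 TPM in cmnac-nor flesh and 11.3, 9.99 and 13.2 TPM in WT flesh at 15 DAP. By 25 DAP it had 10.2, 7.97 and 6.82 TPM in cmnac-nor flesh, against 0.83, 0.94 and 0.86 TPM in WT flesh, a change of 2.30 (SE 0.28, limma adjusted p 8.47e-07). At 35 DAP it had 7.70, 13.9 and 9.68 TPM in cmnac-nor flesh, against 0.08, 1.05 and 0.11 TPM in WT flesh, a change of 3.04 (SE 0.28, limma adjusted p 1.96e-08). Its 45 DAP libraries had 0.77, 0.83 and 0.96 TPM in cmnac-nor flesh, against 2.36, 0.91 and 2.97 TPM in WT flesh, and these libraries overlapped. The limma adjusted p at 45 DAP was 0.0466 and ranged from 0.00118 to 0.214 over the alternatives, missing the threshold without any 1 library of that age except WT library 2. MYB44-like MELO3C016789.2 was called at none of the 4 ages, with adjusted p of 0.579, 0.223, 0.4 and 0.847 (limma).

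MYB108, known in Arabidopsis for anther development, senescence and stress, gave 5 members, all with means under 15 TPM. At 15 DAP, 1 of 5 was lower in cmnac-nor flesh and 0 higher. Of these, 4, 4 and 5 were higher in cmnac-nor flesh at 25, 35 and 45 DAP and none was lower. The shares higher were 80%, 80% and 100%, beside 48.6%, 41.2% and 38.5% of all genes. Of the 5 at 45 DAP, MELO3C011604.2 passed the filter only through the mutant libraries of that age. Class medians were 1.69, 1.38 and 1.85 beside all-gene medians of 0.44, 0.27 and 0.22. Quantile normalization left 2, 3 and 5 higher and none lower. The summed level of the 5 genes averaged 4.41, 15.1, 14.7 and 36.4 TPM in cmnac-nor flesh at the 4 ages, against 9.67, 1.60, 1.39 and 6.40 TPM in WT flesh. MELO3C023633.2, the most abundant, had 8.92, 21.2 and 14.3 TPM in cmnac-nor flesh at 45 DAP, against 2.86, 3.70 and 2.15 TPM in WT flesh, a log2 change of 1.96 (SE 0.40, limma adjusted p 0.000335). MELO3C002090.2 had 14.2, 11.8 and 12.1 TPM in cmnac-nor flesh at 45 DAP, against 4.64, 2.79 and 1.53 TPM in WT flesh, a change of 1.85 (SE 0.32, limma adjusted p 6.72e-05). At 45 DAP the mutant libraries of both genes all exceeded the WT libraries. These 2 genes were chosen after their values were seen.

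The other 3 MYB108 genes were lower in level. MELO3C012926.2 had 4.92, 2.81 and 1.58 TPM in cmnac-nor flesh at 25 DAP, against 0, 0 and 0.07 TPM in WT flesh, a log2 change of 1.92 (SE 0.31, limma adjusted p 2.53e-05). MELO3C006728.2 had 4.29, 3.82 and 1.85 TPM in cmnac-nor flesh at 25 DAP, against 0.13, 0 and 0.24 TPM in WT flesh, a change of 1.90 (SE 0.23, limma adjusted p 8.76e-07). MELO3C011604.2 appeared only in the oldest mutant flesh: at 45 DAP it had 2.75, 1.81 and 1.43 TPM in cmnac-nor flesh, against 0, 0 and 0.06 TPM in WT flesh, a change of 1.53 (SE 0.14, limma adjusted p 1.88e-08), and no library of another group exceeded 0.11 TPM. This gene passed the filter only through those 3 mutant libraries, so its adjusted p at 45 DAP is not independent of the filter.

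The 3 developmental R2R3 genes differed among themselves in direction. GAMYB, named for its role in gibberellin signalling in cereal aleurone, is MELO3C019923.2, with 20.9, 7.92 and 7.11 TPM in cmnac-nor flesh at 15 DAP, against 18.0, 9.08 and 20.6 TPM in WT flesh. At 35 DAP it had 6.55, 5.58 and 7.55 TPM in cmnac-nor flesh, against 30.9, 51.5 and 24.1 TPM in WT flesh, a log2 change of -2.21 (SE 0.33, limma adjusted p 1.12e-05). In the oldest flesh, at 45 DAP, it had 6.24, 5.96 and 8.49 TPM in cmnac-nor flesh, against 77.7, 86.9 and 71.9 TPM in WT flesh, a change of -3.35 (SE 0.33, limma adjusted p 7.09e-08). WT means were higher at each age after 25 DAP, and the mutant libraries all stayed under 12 TPM from 25 DAP on. MYB24, which acts with jasmonate in Arabidopsis stamens, has the relative MELO3C017315.2. This gene had 39.6, 24.96 and 26.6 TPM in cmnac-nor flesh at 45 DAP, against 1.28, 0.69 and 0.91 TPM in WT flesh, a change of 3.98 (SE 0.28, limma adjusted p 5.35e-10). Its mutant libraries at 15, 25 and 35 DAP all lay under 5 TPM, so the high level was that of the oldest mutant flesh. MYB98, known from Arabidopsis synergid cells and pollen tube guidance, has the relative MELO3C017090.2, with 5.68, 11.9 and 7.14 TPM in cmnac-nor flesh at 25 DAP, against 0.53, 1.61 and 0.87 TPM in WT flesh and a change of 2.19 (SE 0.34, limma adjusted p 1.58e-05).

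Secondary-wall R2R3 genes were at or under 0.19 TPM in every WT library from 25 DAP on. The MYB86-like gene MELO3C004145.2 had 9.35, 18.9 and 10.1 TPM in cmnac-nor flesh at 35 DAP, against 0, 0 and 0.05 TPM in WT flesh, a log2 change of 3.70 (SE 0.33, limma adjusted p 1.18e-08). At 25 DAP its change was 2.67 (SE 0.33, limma adjusted p 8.81e-07), and at 45 DAP it had 1.41, 1.82 and 1.36 TPM in cmnac-nor flesh and was listed at 0 in all 3 WT libraries. MYB86, MELO3C015228.2, turned round between ages: at 15 DAP it had 1.43, 1.41 and 1.60 TPM in cmnac-nor flesh, against 5.35, 5.01 and 5.79 TPM in WT flesh, a change of -1.36 (SE 0.18, limma adjusted p 4.77e-05). Its 25 DAP libraries had 1.95, 3.34 and 3.95 TPM in cmnac-nor flesh, against 0, 0.19 and 0 TPM in WT flesh, a change of 1.91 (SE 0.18, limma adjusted p 4.19e-08). Each difference had no overlap of libraries. MYB86-like MELO3C002292.2 had 3.74, 1.56 and 1.28 TPM in cmnac-nor flesh at 45 DAP, and was listed at 0 in all 3 WT libraries (limma adjusted p 0.00311). MYB46, a master switch of secondary walls in Arabidopsis, was found at low levels as MELO3C023549.2, with 1.82, 2.49 and 0.10 TPM in cmnac-nor flesh and 0.96, 0.24 and 0.53 TPM in WT flesh at 15 DAP, and was called at no age; it was chosen after its values were seen. Of the 2 cell-cycle members, 3R-1 MELO3C011156.2 had 7.0, 6.90 and 9.95 TPM in cmnac-nor flesh at 45 DAP and 12.1, 14.5 and 7.0 TPM in WT flesh, which overlapped. The 3R-1-like gene MELO3C003578.2 had 4.95, 4.67 and 4.77 TPM in cmnac-nor flesh at 45 DAP, against 9.27, 6.70 and 7.09 TPM in WT flesh, a change of -0.57 (SE 0.16, limma adjusted p 0.00448), and at 35 DAP its change was -0.57 (SE 0.16, limma adjusted p 0.00415).

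**Figure D4:**
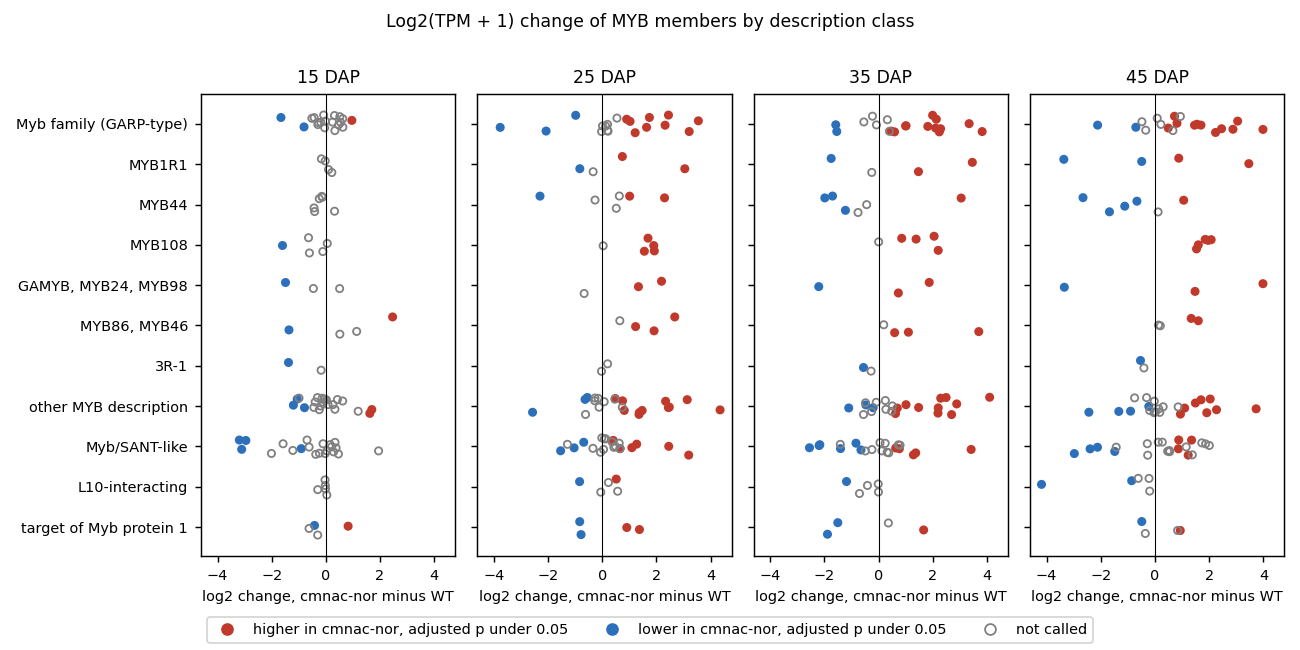
Each point is 1 member, placed by its log2(TPM + 1) change, cmnac-nor minus WT, at each age and by description class; filled points are called higher (red) or lower (blue) at adjusted p under 0.05 and open ones are not called. From 25 DAP on the called MYB108 points all lie to the right, and MYB1R1 and Myb family points lie on both sides.

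The 22 members with only a general MYB description split as 11 higher and 3 lower at both 25 and 35 DAP, then 8 higher and 4 lower at 45 DAP. The shares called were 63.6%, 63.6% and 54.5%, beside 66.9%, 64.4% and 60.5% of all genes. Quantile normalization gave 8 and 8, 8 and 5, and 5 and 8, so the balance turned round at 45 DAP. The balance of all genes also turned there, to 4749 higher and 5958 lower. No role is given to them here. The Myb transcription factor MELO3C020701.2 had 12.6, 20.8 and 18.5 TPM in cmnac-nor flesh at 35 DAP, against 0.15, 0 and 0 TPM in WT flesh, a log2 change of 4.10 (SE 0.21, limma adjusted p 6.03e-12). At 45 DAP it had 14.5, 15.4 and 11.2 TPM in cmnac-nor flesh, against 0.08, 0 and 0.22 TPM in WT flesh, a change of 3.73 (SE 0.21, limma adjusted p 2.58e-11). Its high level in the mutant began at 35 DAP, since both genotypes had under 2.5 TPM at 25 DAP, though it was called higher in cmnac-nor flesh at that age too. At 15 DAP the gene was called lower in cmnac-nor flesh in the model of all libraries. Its log2 change there was -1.06, with a limma adjusted p of 0.0835 in the fit to the 15 DAP libraries alone. The Myb-related gene MELO3C012890.2 peaked earlier: at 25 DAP it had 50.6, 45.95 and 15.4 TPM in cmnac-nor flesh, against 0.14, 1.05 and 1.01 TPM in WT flesh, a change of 4.35 (SE 0.55, limma adjusted p 1.26e-06). No mutant library of another age exceeded 7.83 TPM. MELO3C020812.2 had 17.5, 22.3 and 15.1 TPM in cmnac-nor flesh at 35 DAP, against 1.65, 2.56 and 1.72 TPM in WT flesh, a change of 2.69 (SE 0.24, limma adjusted p 1.08e-08), and at 45 DAP its change was 2.27 (SE 0.24, limma adjusted p 1.28e-07).

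MELO3C012848.2 was higher in the mutant from 25 DAP on, with 39.9, 39.7 and 39.7 TPM in cmnac-nor flesh at 35 DAP, against 7.61, 10.98 and 5.91 TPM in WT flesh, a log2 change of 2.19 (SE 0.13, limma adjusted p 8.66e-11). At 25 DAP its change was 2.34 (SE 0.13, limma adjusted p 4.49e-11) and at 45 DAP 1.49 (SE 0.13, limma adjusted p 1.87e-08). MELO3C007400.2 had 8.30, 12.6 and 8.72 TPM in cmnac-nor flesh at 25 DAP, against 0.18, 0.34 and 0.15 TPM in WT flesh, a change of 3.13 (SE 0.21, limma adjusted p 2.85e-10). By 45 DAP it was at 0.11, 0.06 and 0.09 TPM in cmnac-nor flesh and 0.45, 0.10 and 0.20 TPM in WT flesh and these libraries overlapped. MELO3C006120.2 had 11.3, 8.80 and 13.2 TPM in cmnac-nor flesh at 25 DAP, against 1.28, 0.81 and 1.42 TPM in WT flesh, a change of 2.47 (SE 0.22, limma adjusted p 1.7e-08). Its direction turned with age: at 15 DAP it had 5.18, 5.96 and 9.05 TPM in cmnac-nor flesh, against 18.0, 18.2 and 13.4 TPM in WT flesh, a change of -1.20 (SE 0.22, limma adjusted p 0.000979), with an adjusted p of 0.0658 in the fit to the 15 DAP libraries alone. MELO3C032396.2 had 5.86, 5.76 and 10.1 TPM in cmnac-nor flesh at 35 DAP, against 0, 0.29 and 0 TPM in WT flesh, a change of 2.88 (SE 0.27, limma adjusted p 2.05e-08).

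Genes of this description that were lower in the mutant included MELO3C034933.2, with 15.8, 21.4 and 17.8 TPM in cmnac-nor flesh at 25 DAP, against 112.7, 115 and 112.05 TPM in WT flesh, a log2 change of -2.57 (SE 0.36, limma adjusted p 4.89e-06). Its WT libraries at the other ages lay between 15.3 and 58.1 TPM, so the high level belonged to WT at 25 DAP. MELO3C013364.2 had 0.87, 2.43 and 1.87 TPM in cmnac-nor flesh at 45 DAP, against 15.1, 12.6 and 12.5 TPM in WT flesh, a change of -2.44 (SE 0.43, limma adjusted p 7.36e-05). At the 3 younger ages no library of either genotype exceeded 5.20 TPM. MELO3C009690.2, chosen after its values were seen, had 34.8, 37.9 and 37.2 TPM in cmnac-nor flesh at 25 DAP, against 56.8, 55.5 and 60.2 TPM in WT flesh, a change of -0.64 (SE 0.07, limma adjusted p 1.53e-07).

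Myb/SANT-like genes, a domain also found in transposon-derived proteins, had 21 members, of which 6 were higher and 3 lower at 25 DAP, 5 higher and 6 lower at 35 DAP, and 4 in each direction at 45 DAP. The shares called were 42.9%, 52.4% and 38.1%, beside 66.9%, 64.4% and 60.5% of all genes. Quantile normalization gave 2 higher and 6 lower, 3 and 6, and 1 and 7. MELO3C028533.2 had 16.7, 15.2 and 24.4 TPM in cmnac-nor flesh at 25 DAP, against 1.32, 1.21 and 0.86 TPM in WT flesh, a log2 change of 3.19 (SE 0.30, limma adjusted p 2.43e-08), and at 35 DAP its change was 3.41 (SE 0.30, limma adjusted p 8.98e-09). MELO3C029646.2 was the reverse, with 0.36, 0.19 and 0.16 TPM in cmnac-nor flesh at 45 DAP, against 8.76, 11.3 and 6.62 TPM in WT flesh, a change of -2.98 (SE 0.27, limma adjusted p 1.8e-08). Its WT level climbed at each age, with means of 0.34, 1.97, 4.65 and 8.91 TPM, while no mutant library reached 1 TPM. In MELO3C031510.2, MELO3C032758.2 and MELO3C028136.2, chosen after their values were seen, the pattern was like that of MELO3C029646.2, with Pearson r between 0.85 and 0.963 for pairs of the 4 genes over the 24 libraries. MELO3C031510.2 had 0.34, 0.35 and 0.60 TPM in cmnac-nor flesh at 45 DAP, against 6.64, 7.61 and 5.42 TPM in WT flesh, a change of -2.40 (SE 0.18, limma adjusted p 2.03e-09). These libraries share groups, so the r describes the course and carries no test.

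MELO3C009422.2 alternated. At 15 DAP it had 13.3, 3.39 and 0.92 TPM in cmnac-nor flesh, against 32.7, 33.4 and 65.9 TPM in WT flesh. Then, at 25 DAP, it had 23.99, 15.6 and 29.5 TPM in cmnac-nor flesh, against 1.45, 6.59 and 3.14 TPM in WT flesh, a log2 change of 2.45 (SE 0.66, limma adjusted p 0.00319). At 35 DAP it had 0.87, 0.55 and 0.61 TPM in cmnac-nor flesh, against 13.0, 17.9 and 2.57 TPM in WT flesh, a change of -2.55 (SE 0.66, limma adjusted p 0.00245). The mutant was thus higher at 25 DAP and lower at 35 DAP with no overlap of libraries at either age, and at 45 DAP the libraries overlapped.

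Another 5 Myb/SANT-like genes varied widely between libraries of 1 group. MELO3C028443.2 had 79.7, 1.22 and 25.7 TPM in cmnac-nor flesh at 35 DAP, a 65.4-fold range, and 15.4, 8.21 and 18.2 TPM in WT flesh. By 45 DAP it had 11.9, 101.2 and 24.8 TPM in cmnac-nor flesh, against 14.1, 9.30 and 5.03 TPM in WT flesh. MELO3C028082.2 had 51.5, 0.22 and 18.1 TPM in the same 3 mutant libraries at 35 DAP, and 14.2, 10.1 and 19.2 TPM in WT flesh. Library 1 of the mutant at 35 DAP and library 2 at 45 DAP were high in both genes, and library 2 at 35 DAP was low. With MELO3C035605.2, MELO3C033417.2 and MELO3C030792.2, chosen after their values were seen, pairs of the 5 genes had Pearson r between 0.833 and 0.978 over the 24 libraries. None of the 5 was called at 25, 35 or 45 DAP. At 15 DAP 2 were called lower in cmnac-nor flesh, with adjusted p of 0.0378 for MELO3C028443.2 and 0.0329 for MELO3C028082.2 in the model of all libraries, and 0.11 and 0.09 in the fit to the 15 DAP libraries (limma). Both calls also ended without library 2 or 3 of the mutant or library 2 or 3 of WT at that age, with adjusted p of 0.0882 to 0.137 for MELO3C028443.2 and 0.0797 to 0.123 for MELO3C028082.2, and that of MELO3C028443.2 ended with no filter on low genes (0.0502) and with a replicate block (0.0545). Near-identical copies can share reads, and the sources used here do not say how such reads were assigned.

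**Figure D5:**
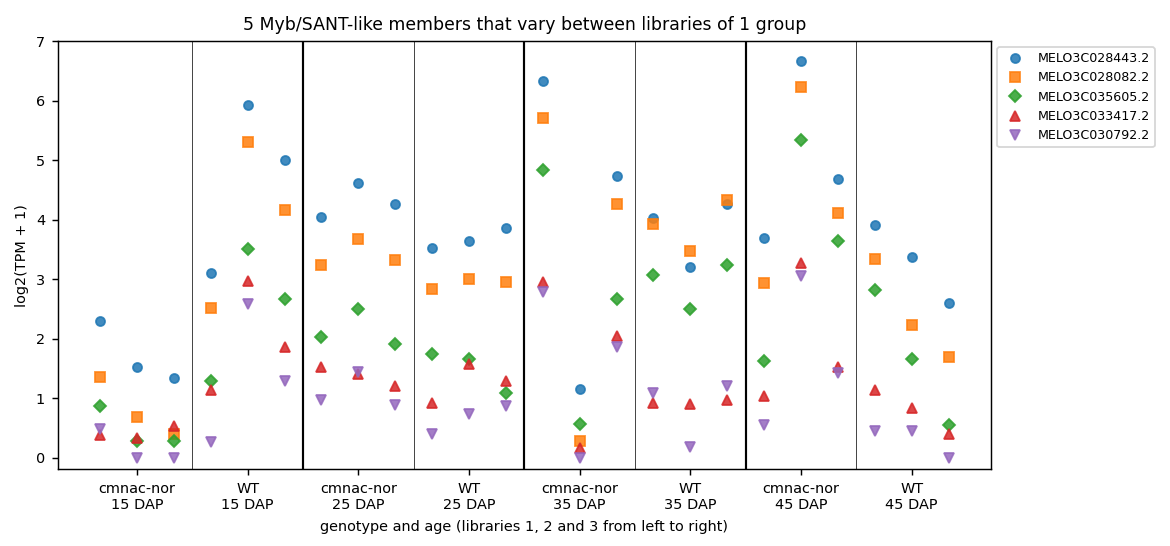
Points give log2(TPM + 1) of 5 Myb/SANT-like members in each of 24 libraries, with cmnac-nor left of WT at each age and libraries 1 to 3 in order within a group. The 5 genes move together between libraries of 1 group, and their libraries lie far apart in cmnac-nor at 35 DAP, where MELO3C028443.2 runs over a 65.4-fold range.

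L10-interacting MYB proteins, known in Arabidopsis from antiviral defence, had 5 members of 25 described, and 1 of them stood apart. MELO3C035039.2 was listed at 0 in all 12 cmnac-nor libraries, and in WT flesh it had 0.32, 1.56 and 0.29 TPM at 35 DAP and 10.7, 11.1 and 41.9 TPM at 45 DAP (limma adjusted p 4.62e-09 at 45 DAP). The gene passed the filter through WT libraries alone, so this adjusted p is not independent of the filter. MELO3C034962.2, chosen after its values were seen, was called at no age, with means of 18.1 to 29.3 TPM in cmnac-nor flesh and 17.9 to 29.7 TPM in WT flesh.

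Among the 4 target of Myb protein 1 genes, MELO3C003249.2 had 14.3, 18.3 and 16.9 TPM in cmnac-nor flesh at 35 DAP, against 66.8, 59.7 and 64.3 TPM in WT flesh, a log2 change of -1.89 (SE 0.16, limma adjusted p 8.52e-09). By 45 DAP it had 51.5, 41.8 and 65.1 TPM in cmnac-nor flesh, against 75.2, 73.8 and 53.9 TPM in WT flesh, and these libraries overlapped. MELO3C008434.2, the most abundant of the 4, spread widely at 15 DAP, with 207, 76.7 and 60.8 TPM in cmnac-nor flesh and 176, 76.2 and 265 TPM in WT flesh, which overlapped. MELO3C003455.2 was higher in the mutant, with 74.5, 79.2 and 81.6 TPM in cmnac-nor flesh at 35 DAP, against 22.5, 26.6 and 23.5 TPM in WT flesh, a change of 1.66 (SE 0.17, limma adjusted p 9.5e-08). MELO3C011154.2, chosen after its values were seen, was lower at 35 DAP, with 47.3, 40.3 and 49.5 TPM in cmnac-nor flesh, against 146, 96.4 and 161 TPM in WT flesh and a change of -1.51 (SE 0.14, limma adjusted p 1.87e-08).

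At 15 DAP the calls depended on the fit. Of the 19 members called with all 24 libraries in 1 model, some were not called in the fit to the 15 DAP libraries alone, which called 6, 3 higher and 3 lower, and without library 2 of the mutant at 15 DAP the count with the other 23 libraries was 12. Called in both fits were MELO3C032396.2, with 5.38, 5.26 and 6.37 TPM in cmnac-nor flesh and 0.79, 0.89 and 1.57 TPM in WT flesh, a log2 change of 1.69 (SE 0.27, limma adjusted p 0.000212), and MELO3C007400.2, with 2.63, 2.76 and 4.54 TPM in cmnac-nor flesh and 0.28, 0.18 and 0.72 TPM in WT flesh and a change of 1.62 (SE 0.21, limma adjusted p 2.68e-05). MYB24-like MELO3C017315.2 was lower in both fits, with 0.07, 0.15 and 0 TPM in cmnac-nor flesh, against 2.34, 1.96 and 1.92 TPM in WT flesh, a change of -1.52 (SE 0.28, limma adjusted p 0.000816). APL MELO3C007989.2 and MYB86 MELO3C015228.2, described above, were also called in both. MYB108 MELO3C006728.2 was called in the smaller fit, with an adjusted p of 0.0304 beside 0.0619 (limma). The MYB86-like gene MELO3C004145.2 had 5.79, 18.4 and 8.46 TPM in cmnac-nor flesh, against 1.37, 1.58 and 0.22 TPM in WT flesh, and an adjusted p of 3.9e-05 in the model of all libraries but 0.0644 in the fit to the 2 groups (limma).

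The course within each genotype was compared by steps between neighbouring ages, later minus earlier. In cmnac-nor flesh, 14 members were higher and 7 lower at 25 than at 15 DAP, 21.6% beside 19.1% of all genes (10.9% higher, 8.12% lower). In WT flesh, 14 were higher and 46 lower over the same step, 61.9% beside 63.4% of all genes (18.5% higher, 44.8% lower). These counts became 25 and 31 under quantile normalization and 18 and 40 under median-of-ratios scaling. Over all genes these scalings gave 5596 higher and 5101 lower, and 5239 and 6071. From 25 to 35 DAP, 9 members were higher and 8 lower in cmnac-nor flesh, 17.5% beside 20.5% (10.8% higher, 9.75% lower). Over this step 17 were higher and 10 lower in WT flesh, 27.8% beside 38.9% (24.8% higher, 14.1% lower). Median-of-ratios scaling gave 13 and 14, beside 3140 and 3709 over all genes. From 35 to 45 DAP, 16 were higher and 12 lower in cmnac-nor flesh, 28.9% beside 29.2% (13.1% higher, 16.2% lower), against 16 and 5 in WT flesh, 21.6% beside 16% (7.2% higher, 8.77% lower). For the mutant step from 15 to 25 DAP, quantile normalization gave 13 and 10, beside 1872 and 2056 over all genes. The count of 17 for the mutant from 25 to 35 DAP was 11 without library 1 of the mutant at 25 DAP, and the 21 for WT from 35 to 45 DAP became 10, 12 and 13 without WT library 1 at 35 DAP, library 3 at 35 DAP and library 1 at 45 DAP.

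Large steps in WT flesh were those of MYB44-like MELO3C024799.2, at 2.66 (SE 0.25, limma adjusted p 3.99e-08) from 15 to 25 DAP, and of Myb factor MELO3C034933.2, at 2.0 (SE 0.36, limma adjusted p 9.25e-05) over that step and -1.56 (SE 0.36, limma adjusted p 0.00213) over the next. In the other direction, MELO3C028533.2 changed by -4.09 (SE 0.30, limma adjusted p 1.32e-09) and MELO3C006120.2 by -3.01 (SE 0.22, limma adjusted p 1.81e-09) from 15 to 25 DAP in WT. APL MELO3C026896.2 changed by -1.68, -2.13 and -1.38 over the 3 steps in WT, the last with a limma adjusted p of 0.00123, which ranged from 1.85e-06 to 0.0599 over the alternatives. L10-interacting MELO3C035039.2 and Myb-related MELO3C013364.2 rose in WT from 35 to 45 DAP, by 3.48 (SE 0.34, limma adjusted p 1.76e-06) and 1.93 (SE 0.43, limma adjusted p 0.00489). In cmnac-nor flesh, MELO3C020701.2 changed by 2.53 (SE 0.21, limma adjusted p 2.76e-07) from 25 to 35 DAP, and MYB24-like MELO3C017315.2 by 3.82 (SE 0.28, limma adjusted p 9.59e-09) from 35 to 45 DAP. Over that last step MELO3C007400.2 changed by -2.94 (SE 0.21, limma adjusted p 7.32e-09) and MYB44 MELO3C009678.2 by -2.59 (SE 0.28, limma adjusted p 1.67e-06) in the mutant.

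Whether a step differed between genotypes was tested as the mutant step minus the WT step. From 15 to 25 DAP, 39 members had a higher and 11 a lower step in the mutant, 51.5% beside 49.8% of all genes (37% higher, 12.8% lower). Quantile normalization gave 23 and 22, and median-of-ratios scaling 27 and 16. Over all genes these scalings gave 3654 and 4281, and 4350 and 4202. From 25 to 35 DAP the counts were 12 and 15, 27.8% beside 34.1% (13.2% higher, 20.9% lower), and from 35 to 45 DAP 9 and 19, 28.9% beside 25.1% (11.9% higher, 13.2% lower). An F test over the 3 step differences called 74 members, 76.3% beside 73.5% of all genes. These shares were near those of all genes, and neighbouring steps share the libraries of the age between them. The 3 smallest adjusted p of the F test were those of MELO3C020701.2 (2.14e-10), APL MELO3C026896.2 (7e-09) and MYB24-like MELO3C017315.2 (1.79e-08), by limma.

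The pathways that R2R3 MYB factors are known to act on were read from the same table. At 45 DAP, 6 of 22 genes of phenylpropanoid entry were higher and 6 lower in cmnac-nor flesh, 9 and 1 of 17 flavonoid genes, 9 and 6 of 29 lignin genes and 11 and 5 of 25 cuticle genes, a list that also takes in 1-acyl-sn-glycerol-3-phosphate acyltransferases, beside 38.5% of all genes higher and 22% lower. At 25 DAP the counts were 13 and 5, 9 and 2, 15 and 4, and 11 and 7, beside 48.6% and 18.3% of all genes, and at 35 DAP 4 and 5, 10 and 2, 11 and 5, and 10 and 9, beside 41.2% and 23.2%. Quantile normalization gave 10 and 6, 4 and 3, 9 and 5, and 6 and 11 at 25 DAP, 3 and 6, 7 and 4, 9 and 8, and 8 and 13 at 35 DAP, and 5 and 7, 7 and 2, 9 and 7, and 7 and 11 at 45 DAP. The balance of the cuticle list thus turned at all 3 ages, and phenylpropanoid entry had more lower than higher at 45 DAP. The balance of all genes turned under this scaling too, with 5322 higher and 5639 lower, 5338 and 6003, and 4749 and 5958 at these ages. Within a pathway, genes of 1 description moved apart: the dihydroflavonol-4-reductase MELO3C016742.2 averaged 66.3 ± 4.54 TPM in cmnac-nor flesh and 508 ± 39.8 TPM in WT flesh at 25 DAP, and the dihydroflavonol-4-reductase-like gene MELO3C032187.2 averaged 83.5 ± 13.4 TPM in cmnac-nor flesh and 21.6 ± 2.51 TPM in WT flesh. In the lignin list, the cinnamyl alcohol dehydrogenase MELO3C018492.2 averaged 10.6 ± 2.63 TPM in cmnac-nor flesh and 855 ± 22.5 TPM in WT flesh at 25 DAP (limma adjusted p 2.72e-09). Another gene of that description, MELO3C019548.2, was higher in the mutant at 45 DAP. It averaged 72.5 ± 14.4 TPM in cmnac-nor flesh and 4.27 ± 0.61 TPM in WT flesh (limma adjusted p 1.18e-08). MYC2-like factors, partners of MYB proteins in jasmonate signalling, included MELO3C003412.2, at 213 ± 39.5 TPM in cmnac-nor flesh and 34.4 ± 3.84 TPM in WT flesh at 45 DAP (limma adjusted p 1.86e-06). Of 3 genes tested on the list of MYB partners, 2 were higher and 1 lower at 45 DAP, beside 38.5% and 22% of all genes. The lower one, GLABRA2 expression modulator MELO3C007728.2, averaged 22.7 ± 0.93 TPM in cmnac-nor flesh and 51.8 ± 6.09 TPM in WT flesh (limma adjusted p 6.74e-06). How these genes and the MYB members relate was not tested.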

How the data were processed

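RNA-seq libraries of melon fruit flesh, 3 for each of 2 genotypes and 4 ages, were used as 1 table of TPM deposited by the authors. No header names the unit. It was inferred: values carry decimals, and each library sums to 927159 to 963192. TopHat2, HISAT2, StringTie and Cufflinks are named in the submitters' processing notes, without version or role. The sources used here give neither genome build nor strand setting. TPM keep no read depth, so no counting interval is given.

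Libraries were matched to groups by their labels. Genes with 1 TPM or more in at least 3 of 24 libraries were tested on log2(TPM + 1) with limma 3.58.1 in R 4.3.3 (8 group means, trended variance, Benjamini-Hochberg adjustment over all 17658 genes, threshold 0.05). The fit was tested on simulated data. Summaries used Python 3.11.15 with pandas 2.3.3 and matplotlib 3.10.9. Differences of steps are contrasts of the same model. Alternatives were a pseudocount of 0.1, no filter, median-of-ratios scaling, quantile normalization, a fit to the compared groups, the replicate number as a block, library weights and leaving out each library. Library weights used the gene-by-gene estimate, chosen after the default estimate failed to converge.

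The members and gene lists were chosen with earlier results of these data known. Members named are the 6 most abundant; in each genotype comparison the 6 largest called changes in each direction among those with no overlap of libraries and at least 5 TPM on average in the group with more; the 3 largest by the same criteria for each step and step difference; and the leading genes of each class. Pathway genes named needed a mean of 10 TPM. Reads shared by near-identical genes, and by genes on opposite strands, may be split between them.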

Additional observations from a re-analysis of the deposited data

Results flagged for a closer look

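The step between ages differed between the genotypes, by the limma contrast of the mutant step minus the WT step, for the 18 differences below. All values are differences on the log2(TPM + 1) scale, and neighbouring steps share libraries.

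From 15 to 25 DAP the mutant step was the higher one for Myb/SANT-like MELO3C009422.2, by 5.56 (SE 0.94, limma adjusted p 9.48e-05), and for Myb-related MELO3C012890.2, by 3.73 (SE 0.77, limma adjusted p 0.000645). It was the lower one for MYB44-like MELO3C024799.2, at -2.17 (SE 0.35, limma adjusted p 6.84e-05), for Myb family MELO3C034013.2, at -2.11 (SE 0.59, limma adjusted p 0.00624), and for APL MELO3C006313.2, at -2.03 (SE 0.30, limma adjusted p 2.7e-05). The difference for MELO3C034013.2 had an adjusted p of 0.0922 with a pseudocount of 0.1. Myb/SANT-like MELO3C028082.2, one of the genes that vary between libraries of a group, had a difference of 3.68 (SE 1.42, limma adjusted p 0.0387). It missed the threshold under 14 alternatives, 10 of them leaving out 1 library. Its adjusted p was 0.0657 and 0.0744 without mutant libraries 2 and 3 at 15 DAP, 0.1 and 0.0675 without WT libraries 2 and 3 at 15 DAP, 0.0549, 0.0695 and 0.0574 without mutant libraries 1, 2 and 3 at 25 DAP, and 0.0653, 0.0579 and 0.0608 without WT libraries 1, 2 and 3 at 25 DAP.

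From 25 to 35 DAP the mutant step was the higher one for Myb factor MELO3C020701.2, by 3.28 (SE 0.29, limma adjusted p 4.69e-07), for MYB factor MELO3C020812.2, by 2.97 (SE 0.33, limma adjusted p 5.01e-06), and for APL MELO3C026896.2, by 2.80 (SE 0.36, limma adjusted p 1.88e-05). It was the lower one for MELO3C009422.2, at -5.01 (SE 0.94, limma adjusted p 0.000565), and for MELO3C012890.2, at -2.87 (SE 0.77, limma adjusted p 0.00811). Myb family MELO3C022867.2 had a difference of -2.81 (SE 0.87, limma adjusted p 0.0188), and without mutant library 3 at 35 DAP its adjusted p was 0.0518. This gene is listed at 0 in WT at 25 DAP, so its difference depends on the pseudocount.

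From 35 to 45 DAP the mutant step was the higher one for MYB24-like MELO3C017315.2, by 3.26 (SE 0.39, limma adjusted p 9.01e-06), and for target of Myb MELO3C003249.2, by 1.53 (SE 0.23, limma adjusted p 0.000101). It was the lower one for MYB44 MELO3C009678.2, at -3.71 (SE 0.40, limma adjusted p 2.44e-06), for L10-interacting MELO3C035039.2, at -3.48 (SE 0.48, limma adjusted p 4.18e-05), and for Myb-related MELO3C013364.2, at -2.69 (SE 0.61, limma adjusted p 0.00327). The value of MELO3C035039.2 depends on the pseudocount, since it is listed at 0 in the mutant. MELO3C009422.2 had a difference of 3.08 (SE 0.94, limma adjusted p 0.0217), with adjusted p of 0.0569, 0.0523 and 0.0618 without WT library 1 at 35 DAP, WT library 2 at 35 DAP and WT library 2 at 45 DAP.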

How the results depend on the processing

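Depth is unknown. The 99 named changes, each under its alternatives, gave 1395 results. Of these results, 1325 kept the call and direction, 70 missed the threshold and 0 reversed. Every alternative kept the call for 75 of the 99 named changes. Fitted to the compared groups alone, the members called numbered 6 for the genotypes at 15 DAP (3 higher, 3 lower), 7, 10 and 9 for the mutant steps from 15 to 25 and 25 to 35 DAP and the WT step from 35 to 45 DAP, against 19, 21, 17 and 21 with all libraries. Library weights gave 35 at 15 DAP, 41 for the WT step from 35 to 45 DAP, 39, 32 and 43 for the 3 mutant steps, and 47 for the step difference from 25 to 35 DAP; the cause was not tested. Without 1 library, counts ran from 12 to 21, 52 to 58, 55 to 59 and 56 to 60 for the genotypes at the 4 ages. They ran from 53 to 57, 21 to 25 and 10 to 28 for the WT steps, 15 to 25, 11 to 17 and 21 to 24 for the mutant steps, 42 to 51, 24 to 29 and 21 to 30 for the step differences, and 69 to 76 for the F test. Replicate numbers did not pair the libraries: 3 of 30 correlations of deviations between same-numbered libraries were over 0.1, from -0.314 to 0.312. With the replicate number as a block, 18, 58, 61 and 58 members were called at the 4 ages, 59, 26 and 20 for the WT steps, 19, 15 and 25 for the mutant steps, 46, 28 and 27 for the step differences and 73 by the F test. Leaving out the Myb/SANT-like, target of Myb and cyclin-D-binding genes, chosen after seeing the data, was within 1.5 times of each count.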
